A study of Mus musculus with 10 samples.

Results

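Msx1, Msx2, Pax9, Barx1, Lhx6 and Lhx8 are the transcription factors by which jaw mesenchyme with the capacity to form teeth is usually recognised. All 6 were chosen by name among the 32285 genes of the matrices, and their UMI counts were read in single cells of the developing mouse lower jaw and incisor. The cells came from wild type embryos of an early stage, E11.5, and of the later stages E14.5 and E16.5. The labels call the tissue of every sample developing incisor, whereas the study's methods describe whole mandibles at E11.5 and dissected lower incisor buds at the later stages, from NMRI mice of several litters. By the labels 4 samples belong to E11.5, another 4 to E14.5 and 2 to E16.5. Each stage was held as 1 matrix with no map from cells to samples. Each stage was therefore 1 sample without replicates. Intervals given below are exact 95% intervals that cover counting error only, and no difference was tested across animals. Stage and dissected tissue cannot be told apart.

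The mesenchyme of the first pharyngeal arch comes from the cranial neural crest and receives signals, chiefly FGFs and BMPs, from the overlying oral epithelium. The 6 factors are part of the answer of the mesenchyme to those signals. Msx1 and Msx2 are homeobox genes known as BMP targets, and Pax9, a paired box gene, is needed together with Msx1 for tooth buds to progress and to keep Bmp4 on in the mesenchyme. Barx1 is a homeobox gene known from the proximal, molar-forming jaw, where BMP4 restricts it away from the distal, incisor-forming region. Lhx6 and Lhx8 are LIM homeobox genes of the oral side of the arch, where FGF8 induces them and where they act redundantly in molar development.

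On GRCm38, with GENCODE vM21 gene models, Msx1 lies on the minus strand at chr5:37820485-37824583, Msx2 on the minus strand at chr13:53466884-53473074 and Pax9 on the plus strand at chr12:56691767-56712822. Barx1 lies on the plus strand at chr13:48662998-48666507, Lhx6 on the minus strand at chr2:36081953-36105408 and Lhx8 on the minus strand at chr3:154306294-154330659. Pax9 overlaps Slc25a21 and Gm15524 on the opposite strand, and Lhx6 holds Gm27953 on its own strand. How reads in the shared stretches were counted is not given in the sources used here.

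Because Msx1 and Barx1 divided the E11.5 mesenchyme while Msx2 and Pax9 had the largest log2 ratios between the later stages, sequence from the start windows of these 4 genes is shown. The windows are those of RefSeq on GRCm38.p6, which run from 250 bases before to 50 after the start that RefSeq annotates. For Msx1, Pax9 and Barx1 the bases outside GENCODE exons are printed. The Msx2 window lies wholly within a GENCODE exon, and 30 bases of it are printed. By the GENCODE models the Msx1 and Barx1 stretches are upstream of the gene, that of Pax9 lies within the gene but outside its exons, and that of Msx2 is exonic. Each is written 5′ to 3′ on the strand of its gene, with TAAT, the core that homeodomains bind, or its reverse complement ATTA, in capitals. The Msx1 stretch is chr5:37824586-37824835, that of Msx2 chr13:53472950-53472979, that of Pax9 chr12:56695221-56695470 and that of Barx1 chr13:48662786-48662997.
Msx1: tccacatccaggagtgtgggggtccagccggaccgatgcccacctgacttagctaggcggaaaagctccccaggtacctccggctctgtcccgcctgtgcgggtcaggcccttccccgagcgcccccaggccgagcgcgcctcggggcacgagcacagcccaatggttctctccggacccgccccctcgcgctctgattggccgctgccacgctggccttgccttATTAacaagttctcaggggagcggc
Msx2: tgactgctcctgTAATTAactccTAATtta
Pax9: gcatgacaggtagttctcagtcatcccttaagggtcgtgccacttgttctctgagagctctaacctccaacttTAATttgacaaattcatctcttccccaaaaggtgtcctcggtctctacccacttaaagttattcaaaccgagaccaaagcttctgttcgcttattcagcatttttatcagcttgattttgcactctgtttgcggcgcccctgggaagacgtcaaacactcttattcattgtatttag
Barx1: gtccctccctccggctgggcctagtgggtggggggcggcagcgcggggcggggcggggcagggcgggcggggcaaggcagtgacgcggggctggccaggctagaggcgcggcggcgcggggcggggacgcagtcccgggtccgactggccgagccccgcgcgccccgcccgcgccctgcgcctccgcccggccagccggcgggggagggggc

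The full Msx2 window held 5 matches to TAAT on either strand, and its 1 longer TAATTA was matched on both strands. The windows of Msx1 and Pax9 held 1 match each, and those of Barx1 and Lhx8 held 0. RefSeq gave 3 windows for Lhx6, and 1 of them held 3 matches and 1 TAATTG, while the other two held 0. TAAT stood in 58.0% of all 32851 windows, TAATTA in 5.29% and TAATTG in 8%, so a single TAAT did not set a window apart from the rest. The Barx1 window had 84.7% G and C, the Msx1 window 70% and the Msx2 window 61%, against a median of 52.7% over all windows, whereas the windows of Pax9 and Lhx8 had 47% each.

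Cells with at least 700 detected genes and at most 20% mitochondrial UMIs numbered 6573 of 8708 barcodes in the E11.5 matrix, 6091 of 8192 in that of E14.5 and 4511 of 5719 in that of E16.5, with medians of 5664, 3471 and 6260 UMIs. Clusters named by markers that include none of the members gave 4842, 4622 and 2530 mesenchymal cells. At the later stages 989 and 1766 cells were epithelial, whereas the E11.5 cells gave no cluster with that name and hence no epithelial comparison. Any 2 stages shared 13 to 17 barcodes. The 10 epithelial markers summed to 9.02, 74.8 and 171 CPM (CPM scales the UMIs of a gene by the summed UMIs of the pooled cells) in the mesenchymal cells, against 2004 and 2751 CPM in the epithelial cells of E14.5 and E16.5. At E14.5 and E16.5 the mesenchyme contained clusters rich in Ibsp, which encodes bone sialoprotein of bone-forming cells. At E11.5 a cluster of 1174 cells led by Cited1 and Hand2 stayed unnamed and outside the mesenchyme. Its best class was mesenchyme, with a score of 0.539 against 0.214 for cartilage. It stayed unnamed because its 10 leading genes held 1 cartilage marker and 0 mesenchymal ones. The main E11.5 levels and co-detection ratios below therefore leave these cells out.

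Red blood cells, which should express none of the members, were taken as a measure of background in each library. The erythroid cells held a median of 28.4% of the mesenchymal level of mesenchymal markers in the E11.5 library, 44.9% in the E14.5 library and 26.4% in the E16.5 library, over 7, 9 and 10 markers. The 7 erythroid marker genes took 218884, 367045 and 418686 CPM in erythroid cells, in order of stage, against 906, 939 and 1904 CPM in mesenchyme. Every erythroid CPM and thinned share given here is lowered by those UMIs, and no allowance was made for them. At E11.5 the erythroid level of the members was 10.9 to 29.5% of the mesenchymal one. Msx1, Pax9 and Lhx8 at E14.5 also lay near the marker values, with 51.4%, 50% and 44.6%. Msx2 at E14.5 did not, since its 21.2 CPM in erythroid cells (12.8 to 33.1) was no lower than its mesenchymal level. Most other classes of the later libraries held less of the same markers. At E14.5 the median was 14.9% in glial and neural crest, 8.76% in endothelial, 6.76% in immune and 3.38% in epithelial cells. At E16.5 it was 3.38% in endothelial, 3.72% in epithelial and 8.79% in immune cells, but 32.6% in pericytes. The median thus differed between the classes of the later libraries, and no level shared by all their cells was estimated. At E11.5 the muscle cells held a median of 22.7% (range 17.2 to 38.9%), near the erythroid 28.4%. Their level of the members was 7.07 to 18.6% of the mesenchymal one. Whether a level was shared by all cells of a library was not tested at any stage. The part of free RNA in the levels below was not tested.

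Msx1 was detected broadly at every stage. It was counted at 246 CPM in E11.5 mesenchyme (241 to 251), 333 CPM at E14.5 (324 to 341) and 367 CPM at E16.5 (358 to 376). These levels stood in the order of age without overlap of their counting intervals, but they differed by less than 2-fold. With every cell thinned to 2000 UMIs, Msx1 was found in 28.3%, 43.7% and 46.6% of mesenchymal cells, whereas in erythroid cells it was found in 7.44%, 25.9% and 7.5%. Without thinning the mesenchymal shares were 45.3%, 59.3% and 77.5%.

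Msx2 was lowest at E14.5. Its mesenchymal level was 31.9 CPM at E11.5 (30 to 33.8), 16.4 CPM at E14.5 (14.6 to 18.4) and 93.1 CPM at E16.5 (88.8 to 97.6). The E16.5 level was 5.68-fold that of E14.5, which on the log2 scale with 10 CPM added was a difference of 1.97 (1.85 to 2.09). The thinned share of mesenchymal cells with Msx2 had the same order, with 5.36%, 2.59% and 12.5%, and that of erythroid cells was 0%, 2.10% and 7.5%. At E14.5 the mesenchymal share lay inside the erythroid interval of 0.435 to 6.01%, which rests on 3 cells with a UMI. At E16.5 it lay inside that of 1.57 to 20.4%, which rests on 3 of 40 cells. The erythroid level at E16.5 was 50.6 CPM (32.4 to 75.3), below the mesenchymal one as counted. With no allowance for the UMIs of erythroid marker genes, this does not place mesenchyme above background. Endothelial and immune cells of E14.5 held no Msx2 UMI, and the exact upper bounds of their levels were 4.54 and 3.82 CPM. The 44 glial and neural crest cells of E14.5 had 36.7 CPM (15.8 to 72.3), from 8 UMIs.

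Pax9 was higher at each later stage. It was counted at 20.9 CPM in E11.5 mesenchyme (19.4 to 22.5), 82.6 CPM at E14.5 (78.5 to 87.0) and 156 CPM at E16.5 (151 to 162), with no overlap of intervals. From E11.5 to E14.5 the level differed 3.96-fold, a log2 ratio of 1.59 (1.49 to 1.68) with 10 CPM added, which was 0.90 with 50 CPM added. From E14.5 to E16.5 it differed 1.89-fold, and the log2 ratio of 0.84 (0.76 to 0.93) was past 2-fold, at 1.04 to 1.23, under 4 of the alternatives. The thinned share of cells with Pax9 was 3.39%, 13.1% and 25.6% in mesenchyme and 2.48%, 5.59% and 10.0% in erythroid cells. The E11.5 share in mesenchyme lay inside the erythroid interval of 0.514 to 7.07%, which rests on 3 of 121 cells. The pooled erythroid level of 5.07 CPM (1.65 to 11.8) was nevertheless below the mesenchymal one as counted.

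Barx1 was abundant in the E11.5 mandible and nearly undetected in the incisor buds. Its mesenchymal level was 386 CPM at E11.5 (380 to 393), 4.53 CPM at E14.5 (3.60 to 5.63, from 81 UMIs) and 0.698 CPM at E16.5 (0.372 to 1.19, from 13 UMIs). The E14.5 level was 85.3-fold below that of E11.5, a log2 ratio of -4.77 (-4.87 to -4.66) with 10 CPM added. A Barx1 UMI was found in 40.7%, 0.762% and 0.0804% of thinned mesenchymal cells. The erythroid share was 12.4% at E11.5 and 0% later. The exact upper bounds of the erythroid level were 4.12 CPM at E14.5 and 7.78 CPM at E16.5. Both reached into the mesenchymal intervals or above them.

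Lhx6 was also counted mainly at E11.5, at 27.9 CPM (26.2 to 29.7, from 972 UMIs). At E14.5 it had 9 UMIs in all mesenchymal cells, or 0.504 CPM (0.230 to 0.956), and at E16.5 it had 22 UMIs, or 1.18 CPM (0.740 to 1.79). The plain fold between E11.5 and E14.5 was 55.4, while the log2 ratio with 10 CPM added was -1.85 (-1.90 to -1.78), and with 50 CPM added it was under 2-fold at -0.63. At the later stages the counted level of Lhx6 was not highest in mesenchyme. Endothelial cells had 3.69 CPM from 3 UMIs at E14.5 and 8.83 CPM from 10 UMIs at E16.5, when epithelial cells had 1.61 CPM. Epithelial cells of E14.5 had 0.286 CPM from 2 UMIs, below mesenchyme, and counts this low do not rank the E14.5 classes.

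Lhx8, the partner of Lhx6, was still counted at the later stages, at a lower level. It was counted at 82.6 CPM at E11.5 (79.6 to 85.6), 42.5 CPM at E14.5 (39.6 to 45.7) and 28.3 CPM at E16.5 (26.0 to 30.9). The levels ran downward with age without overlap, and neither step reached 2-fold with 10 CPM added, with log2 ratios of -0.82 (-0.91 to -0.72) and -0.45 (-0.58 to -0.33). In thinned cells Lhx8 was found in 12.4%, 8.94% and 4.70% of the mesenchyme and in 4.96%, 4.20% and 0% of erythroid cells. The E16.5 share lay inside the erythroid interval of 0 to 8.81%, which rests on only 40 cells. The pooled erythroid level of 4.22 CPM (0.511 to 15.2) was below the mesenchymal one as counted, with no allowance for the UMIs of erythroid marker genes.

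**Figure D1:**
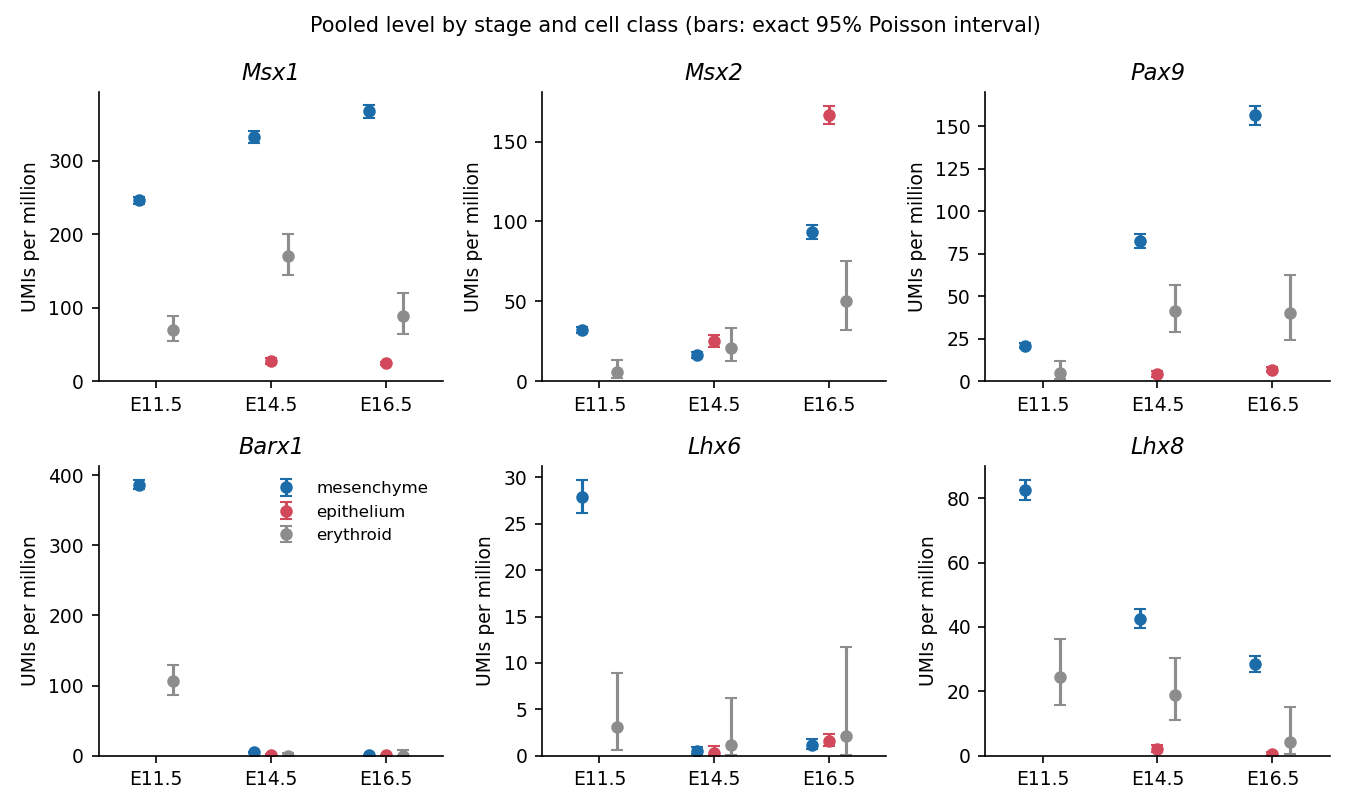
The pooled level of each member (vertical axis, CPM, from 0) is plotted by stage for mesenchymal cells (blue), epithelial cells (red, E14.5 and E16.5 only) and erythroid cells (grey), with bars for the exact 95% Poisson interval. Barx1 and Lhx6 stood at 386 and 27.9 CPM in E11.5 mesenchyme and near 0 later, Pax9 was higher at each later stage, and at E16.5 Msx2 was higher in epithelium than in mesenchyme.

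Counted over all genes with at least 10 CPM in either stage, 4.51% were at least 2-fold higher and 2.91% at least 2-fold lower at E14.5 than at E11.5. Of the 6 members, 1 was higher (Pax9), 2 were lower (Barx1 and Lhx6) and 3 lay within 2-fold, with a median log2 ratio of -0.74 beside -0.15 over all genes. From E14.5 to E16.5, 1.77% of genes were higher and 0.555% lower. Of the 4 members that reached 10 CPM, 1 was higher (Msx2) and 0 were lower, with a median of 0.49 beside 0.08, and Barx1 and Lhx6 were below the minimum. The members were chosen with earlier results of these data known, so these counts are a description. In counts pooled over cells, fewer expressing cells and less RNA per cell cannot be told apart. The thinned shares differed in the same direction as the levels for all 6 members in both steps. At a fixed depth a share follows the level, so this does not separate them. For Lhx6 from E14.5 to E16.5 the shares rest on 6 and 8 cells.

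Mesenchyme and epithelium of the same library were then compared. Msx1, Pax9 and Lhx8 were higher in mesenchyme at both stages. At E14.5 Msx1 was at 333 CPM in mesenchyme and 27.7 CPM in epithelium, Pax9 at 82.6 and 4.14 CPM, and Lhx8 at 42.5 and 2.0 CPM. At E16.5 the mesenchymal level was 15-fold that of epithelium for Msx1, 22.6-fold for Pax9 and 45.4-fold for Lhx8. The epithelial residue of Msx1, at 8.33% and 6.69% of the mesenchymal level, lay beside a median of 3.38% and 3.72% for mesenchymal markers, whose range reached 33.3% and 36.2%. Among all genes 5.61% were at least 2-fold higher in mesenchyme and 4.83% in epithelium at E14.5, and 5.9% and 4.76% at E16.5. At both stages 3 of the 4 members with at least 10 CPM were higher in mesenchyme and 0 were higher in epithelium by 2-fold. The members were chosen as mesenchymal factors, so the choice partly set this direction.

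Msx2 was the exception, with a higher level in epithelium than in mesenchyme at both stages. It was counted at 25.0 CPM in E14.5 epithelium, against 16.4 CPM in mesenchyme, and at 167 CPM in E16.5 epithelium, against 93.1 CPM. The E14.5 epithelial level lay inside the erythroid interval of that library, 12.8 to 33.1 CPM. The E16.5 difference was 1.79-fold, with a log2 ratio of mesenchyme over epithelium of -0.78 (-0.85 to -0.70), and it passed 2-fold, at -1.06 to -1.25, under 5 alternatives. Between E14.5 and E16.5 the epithelial level differed 6.67-fold and the mesenchymal level 5.68-fold. Msx2 is known from the dental epithelium as well, where it is needed in enamel-forming ameloblasts. The thinned share of epithelial cells with Msx2 was 4.43% at E14.5 and 29.0% at E16.5, whereas for Msx1 it was 3.95% and 4.37%.

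Clustering at a finer resolution of 0.8 placed Msx2 unevenly in the E16.5 epithelium. It was lowest, at 41.4 CPM, in 169 cells led by Pcp4, Crabp1 and Cldn10. The cycling cells led by Hist1h1b had 160 CPM, those led by Odam and Acta2 177 CPM and those led by Fat2 and Ppargc1a 188 CPM. The level was highest, at 239 CPM, in 350 cells led by Stmn2, Slc40a1 and Igfbpl1. Shh, the epithelial signal of the enamel knot and inner enamel epithelium, was chosen for comparison after its values were seen, and was highest in the same cluster at 418 CPM. In the order of increasing Msx2 its other levels were 65.0, 169, 102 and 45.8 CPM, so the levels did not run in parallel.

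**Figure D2:**
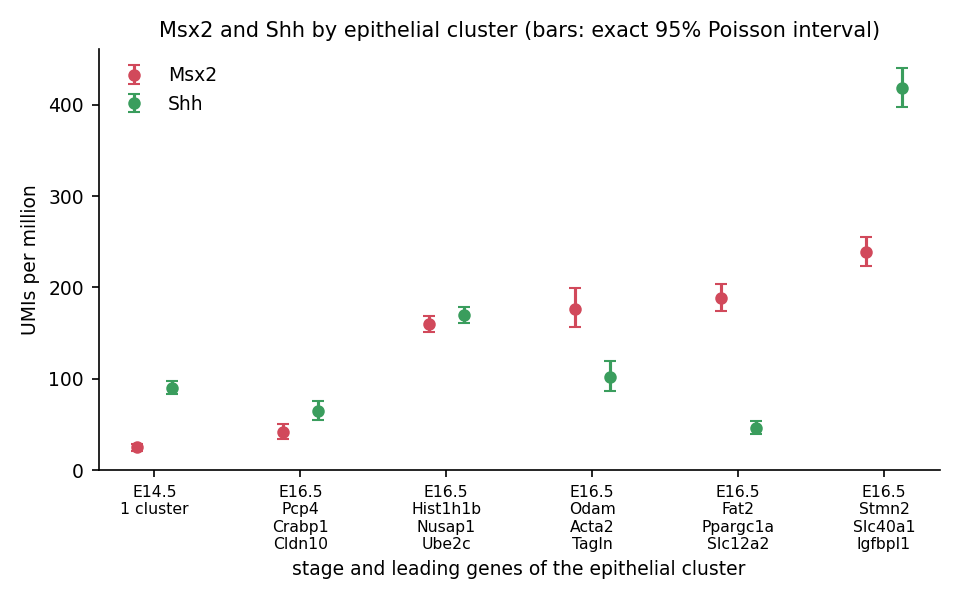
Levels of Msx2 (red) and Shh (green) are plotted in CPM (vertical axis, from 0) for the single E14.5 epithelial cluster and the 5 E16.5 clusters, named by their leading genes and ordered by Msx2, with bars for the exact 95% Poisson interval. Both genes were highest in the cluster led by Stmn2, Slc40a1 and Igfbpl1, at 239 and 418, while the clusters between differed in order.

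Within the mesenchyme the members marked different clusters. Resolution 0.8 gave 19 mesenchymal clusters, which were made without the members but share the library and its free RNA. At E11.5, Msx1 and Msx2 were highest in 887 cells led by Pax3 and Alx1, with 557 CPM of Msx1 (542 to 572) and 79.2 CPM of Msx2 (73.6 to 85.0). In the same cells Barx1 was lowest, at 121 CPM (114 to 128). The reverse was seen in 1199 cells led by Emx2 and Foxd1, where Msx1 was at 79.1 CPM, Msx2 at 5.81 CPM and Barx1 at 508 CPM. A smaller cluster of 288 cells led by Osr2, Cdh6 and Shox2 had the highest levels of Lhx8, at 186 CPM (171 to 202), and Pax9, at 50.7 CPM (42.9 to 59.5). Its Lhx6 was also highest, at 42.9 CPM (35.7 to 51.1). That interval overlapped the 33.9 CPM (30.3 to 37.8) of the cells led by Pax3 and Alx1. The 526 CPM of Barx1 (500 to 553) in the cluster led by Osr2 lay within counting error of the cells led by Emx2 and Foxd1. Osr2 is a zinc finger gene known to restrict tooth formation on the lingual side of the molar field, and Shox2 is a homeobox gene of palate and jaw. A further 1170 cells led by haemoglobin genes had a median of 2020.5 UMIs and intermediate levels, such as 323 CPM of Barx1. Their Lhx6, at 29.6 CPM (23.7 to 36.4), also overlapped the interval of the highest cluster. In the unnamed cluster led by Cited1 and Hand2, which is not among the 19, Barx1 was at 263 CPM and Msx1 at 75.7 CPM.

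At E14.5 the level of Pax9 was highest, at 171 CPM (116 to 243), in 99 cells of low depth led by AY036118 and mt-Nd6, with a median of 1474 UMIs. It was at 132 CPM in 572 cells led by Dlx2, Crym and Egr3, within that interval, and in these cells Msx1 was highest, at 437 CPM (416 to 458). Their Msx2, at 31.6 CPM (26.3 to 37.6), lay within counting error of the 28.9 CPM in cells led by Hist1h2bc and Lgals7. Fgf3, a growth factor of the dental mesenchyme, was at 74.2 CPM there. In 526 cells led by Osr1, Ebf2 and Ogn, Pax9 was at 3.64 CPM (1.18 to 8.50), whereas Lhx8 was at its highest, 98.3 CPM (82.4 to 116). The 726 cells led by Ibsp, Stmn2 and Smpd3 had 17.4 CPM of Pax9 and 239 CPM of Msx1. What Barx1 remained at E14.5 was concentrated, since 50 of its 81 UMIs lay in 496 cells led by Ccnd1 and Sst, at 35.3 CPM (26.2 to 46.6). Those cells had 2.12 CPM of Msx2.

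At E16.5, 628 cells led by Lypd1, Col8a1 and Smoc2 had 398 CPM of Pax9 (377 to 419), with 443 CPM of Msx1 and 98.6 CPM of Msx2. The 113 cells led by Ifitm5 and Smpd3, genes of bone-forming cells, had the highest Msx2, at 196 CPM (173 to 222), with 386 CPM of Msx1 but only 9.27 CPM of Pax9 (4.79 to 16.2) and no Lhx8 UMI. A cluster led by Bmp3 and Dkk2 with a like level of Ibsp had 8.97 CPM of Msx2 and 81.2 CPM of Pax9. Msx1 ranged from 230 to 443 CPM over the 6 clusters of E16.5, so it varied less than Msx2 and Pax9 did.

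**Figure D3:**
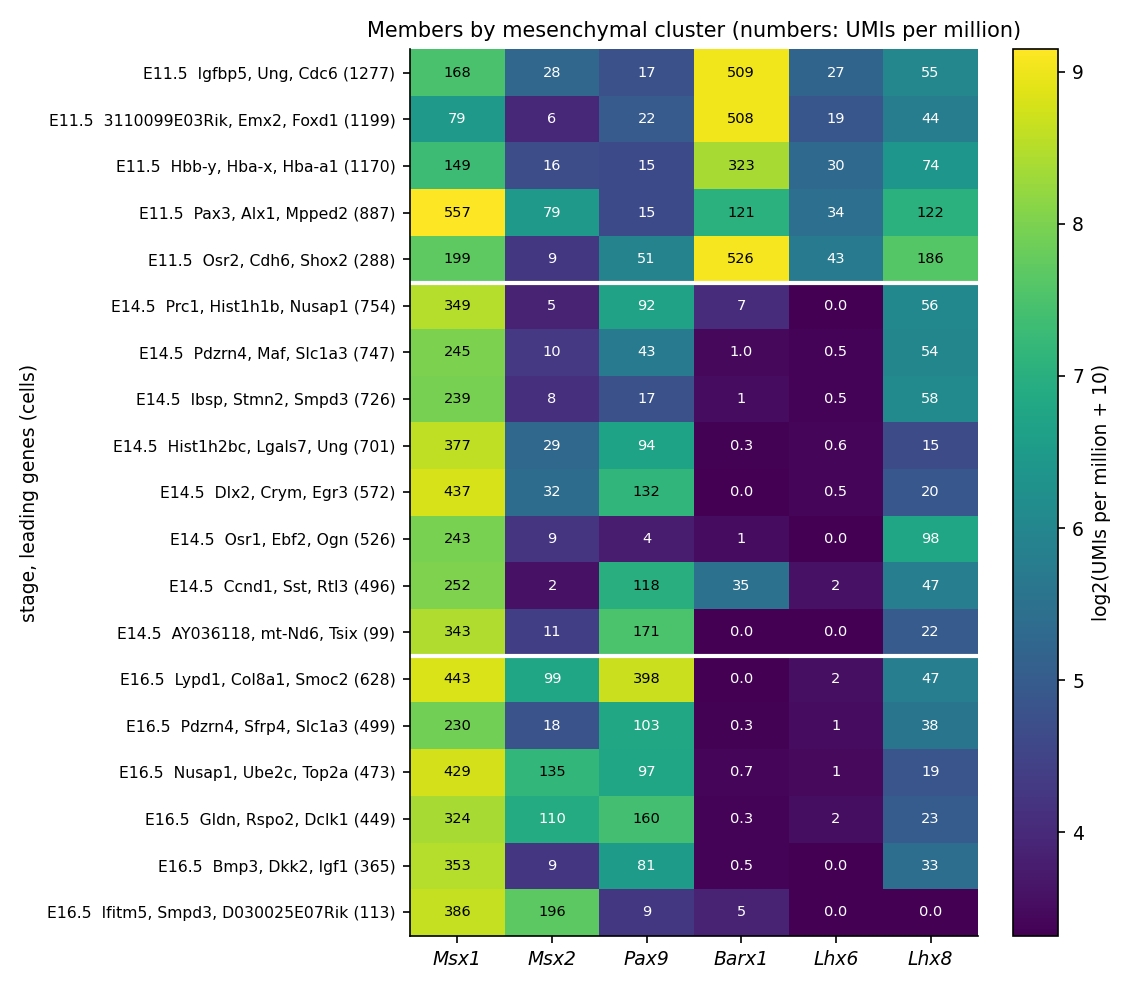
Each line of the heat map is 1 of the 19 mesenchymal clusters, named by stage, leading genes and number of cells, and each column is a member. Colour gives log2 of CPM plus 10, and the printed number gives CPM. Barx1 was at 323 to 526 in the E11.5 clusters other than that led by Pax3 and Alx1 (121), and Pax9 was highest at E16.5 in the cluster led by Lypd1 (398).

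Co-detection of 2 members in the same cell was counted in mesenchymal cells thinned to 2000 UMIs and set against the number expected if both were detected independently. Thinning kept 4251, 3937 and 2488 cells. At E11.5 all 15 pairs had at least 5 expected cells. The interval of the ratio lay above 1 for 7 pairs and below 1 for 2. Msx1 and Msx2 were found together in 146 cells against 64.6 expected, a ratio of 2.26 (1.91 to 2.66), so that 64.0% of cells with Msx2 also had Msx1, compared with 26.3% of those without. Pax9 and both LIM genes went together. Pax9 with Lhx6 gave 2.84 (1.76 to 4.35) from 21 cells, Pax9 with Lhx8 gave 2.46 (1.79 to 3.30) from 44 cells, and Lhx6 with Lhx8 gave 2.11 (1.59 to 2.73) from 57 cells. Pax9 was detected in 144 of the E11.5 cells, the share that lay inside the erythroid interval. Pax9 with Barx1 had a ratio of 1.69 (1.37 to 2.06), Msx1 with Lhx8 one of 1.44 (1.26 to 1.65) and Msx2 with Lhx8 one of 1.41 (1.01 to 1.92).

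The pairs below expectation joined Barx1 with an Msx gene. Msx1 and Barx1 were found together in 278 cells against 491 expected, a ratio of 0.567 (0.502 to 0.637). Barx1 was detected in 23.1% of cells with Msx1 and in 47.7% of cells without it. Msx2 and Barx1 shared 25 cells against 92.8 expected, a ratio of 0.269 (0.174 to 0.398). Msx1 and Pax9, whose products act together in the tooth bud, were found together at E11.5 in 40 cells against 40.8 expected (ratio 0.980, 0.700 to 1.33). For Barx1 with Lhx8 the ratio was 0.967 (0.840 to 1.11). Under all alternatives the ratio of Msx1 and Barx1 stayed between 0.45 and 0.81 and that of Msx1 and Msx2 between 1.53 and 3.08.

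In the incisor buds fewer pairs stood apart from 1. At E14.5, 7 pairs had at least 5 expected cells, and none lay above 1. The 3 below were Pax9 with Lhx8, at 0.675 (0.458 to 0.957) from 31 cells, Msx2 with Lhx8, at 0.219 (0.0266 to 0.792) from 2 cells, and Msx1 with Barx1, at 0.229 (0.0472 to 0.669) from 3 cells. The first was 1.21 where at least 2 UMIs of each gene were asked for. At E16.5, 6 pairs had enough cells, and 2 lay above 1, both with Pax9. Msx2 with Pax9 gave 1.31 (1.07 to 1.59) from 104 cells, and Msx1 with Pax9 gave 1.12 (1.0 to 1.24) from 331. Neither lay above 1 when the expectation was summed over mesenchymal clusters. Msx1 and Msx2 were at 1.26 (0.950 to 1.63) and 1.10 (0.940 to 1.29) at the later stages, so both intervals included 1. Differences between stages in these ratios were not tested.

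**Figure D4:**
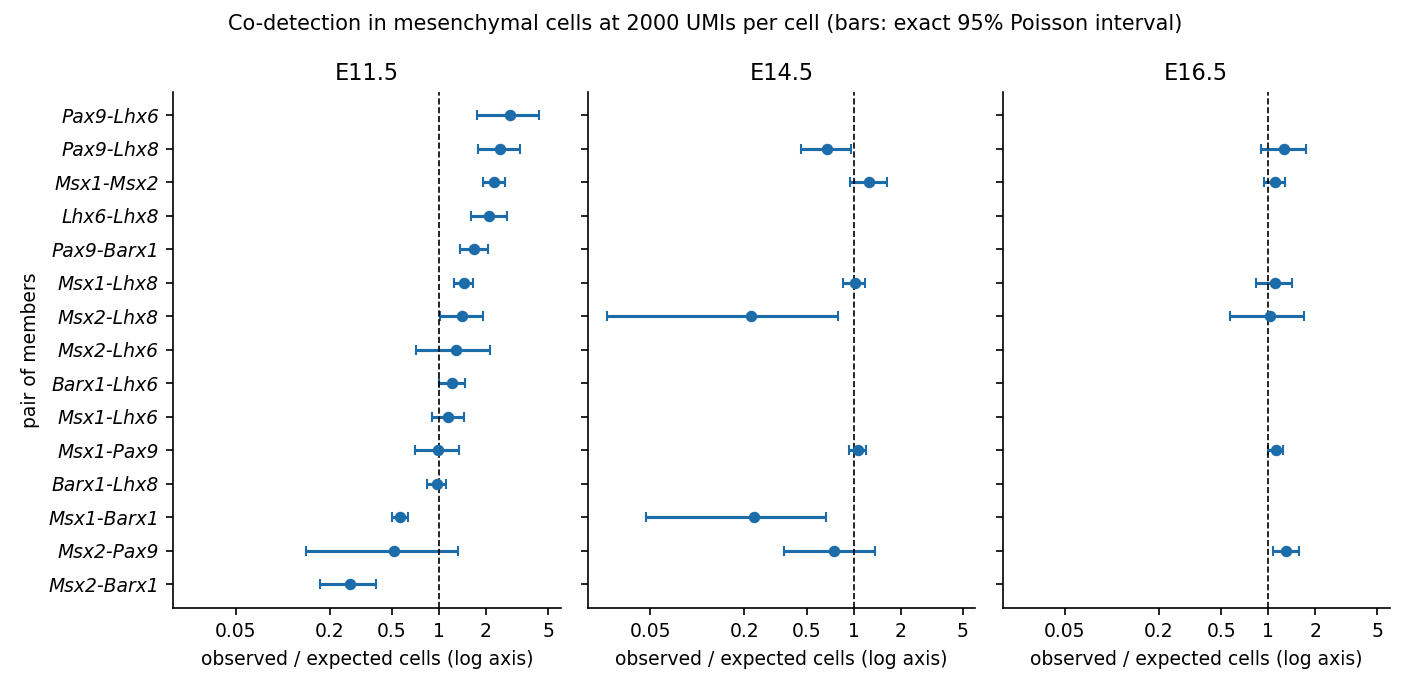
Observed over expected number of mesenchymal cells with a UMI of both members (horizontal log axis) is plotted for each pair with at least 5 expected cells, in 1 panel per stage, with bars for the exact 95% Poisson interval and a dashed line at 1. At E11.5 the ratios ran from 0.269 for Msx2 with Barx1 to 2.84 for Pax9 with Lhx6, while later most bars crossed the line.

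Most thinned mesenchymal cells held a UMI of no member or of 1 member. No member was found in 31.3%, 43.0% and 35.5% of cells, in order of stage, compared with 78.5%, 68.5% and 75.0% of erythroid cells. At least 3 were found in 189 E11.5 cells (4.45%), 28 E14.5 cells (0.711%) and 77 E16.5 cells (3.09%), and no cell held all 6. At E11.5 Barx1 alone was the commonest combination, in 1166 cells (27.4%), followed by Msx1 alone, in 602 (14.2%). At E14.5 Msx1 alone took 32.8%. At E16.5 Msx1 alone took 27.5% and Msx1 with Pax9 10.5%, which at E14.5 was 5.44%.

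The E11.5 mesenchyme was divided further by detection of Msx1 and Barx1. Of the thinned cells, 1453 (34.2%) had Barx1 without Msx1, 927 (21.8%) had Msx1 without Barx1, 278 (6.54%) had both and 1593 (37.5%) had neither. At E14.5 the same groups held 27, 1716 and 3 cells with a UMI of either gene, and at E16.5 0, 1157 and 2, so only E11.5 was compared. Cells share their library, and the groups were set by detection, so the values are a description. Over all genes with at least 10 CPM in either group, 0.426% were at least 2-fold higher in the Barx1 cells and 0.526% in the Msx1 cells.

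Genes at the top in Barx1 cells were Ebf1, at 110 CPM against 11.9 CPM (log2 ratio 2.46, 2.08 to 2.81), Pkdcc, at 79.1 against 11.9 CPM (2.03), and Shox2, at 101 against 17.8 CPM (2.0). Those at the top in Msx1 cells were Alx1, at 76.1 against 2.06 CPM (-2.83), Pax3, at 86.3 against 4.13 CPM (-2.77), and Msx2 itself, at 86.3 against 5.16 CPM (-2.67, -2.95 to -2.32). Alx1 is a homeobox gene and Pax3 a paired box gene of the facial neural crest. Among the other members, Pax9 was at 34.1 CPM in Barx1 cells and 12.4 CPM in Msx1 cells (0.98, 0.55 to 1.37), Lhx8 at 68.1 and 108 CPM (-0.59, -0.85 to -0.33) and Lhx6 at 33.7 and 30.7 CPM (0.10, -0.27 to 0.47). The interval for Lhx6 included 0.

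A list of 48 genes of the odontogenic circuit (paralogs of the members, LIM cofactors, jaw patterning factors, epithelial and mesenchymal signals, and mesenchymal genes downstream) had 25 genes with at least 10 CPM in either group of cells. Of these, 2 were at least 2-fold higher in Barx1 cells, Osr1 (log2 ratio 1.51) and Dlx1 (1.04). Of the 25, 8 were higher in Msx1 cells, among them Alx1, Hand1 (-2.55), Hand2 (-1.73), Alx4 (-1.49), Lef1 (-1.38) and Bmp4 (-1.34). Hand1 and Hand2 are basic helix-loop-helix genes of the distal arch, Alx genes belong to the midface and distal jaw, and Bmp4 is the signal that upholds Msx1. The groups differ by construction in Msx1 and Barx1, which were left out of these counts. The list itself was chosen with earlier results of these data known. Over all genes the shares were 0.426% higher in Barx1 cells and 0.526% higher in Msx1 cells. The unnamed E11.5 cluster led by Cited1 and Hand2 was in neither group. In its thinned cells Barx1 was found in 27.9% and Msx1 in 11.8%, so the ratio of Hand2 holds for the named mesenchyme only.

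**Figure D5:**
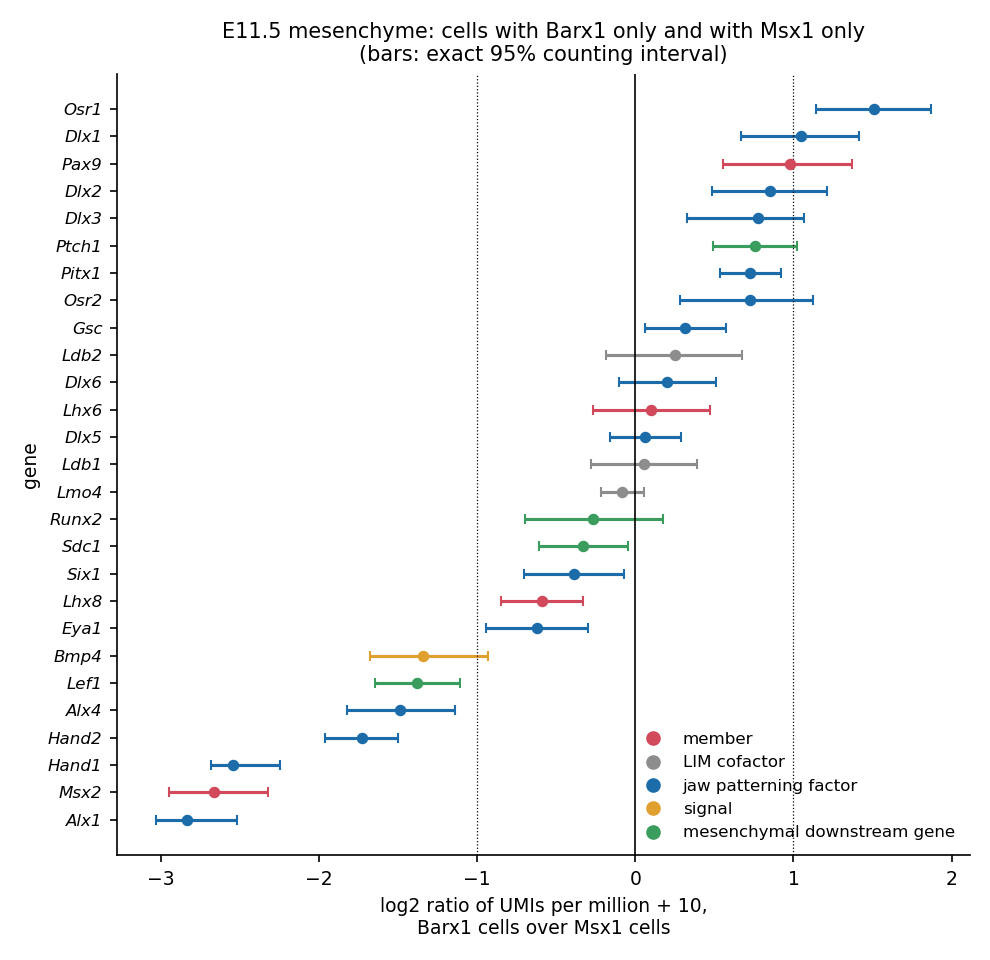
The log2 ratio of CPM plus 10 in E11.5 mesenchymal cells with Barx1 and no Msx1 over those with Msx1 and no Barx1 (horizontal axis) is plotted for members and circuit genes with at least 10 CPM in either group, apart from a few not reported here, coloured by list, with exact 95% counting intervals and dotted lines at a 2-fold difference. Osr1 stood to the right at 1.51, and Alx1 and Msx2 to the left at -2.83 and -2.67.

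Between stages, 33 of the 48 circuit genes reached 10 CPM in E11.5 or E14.5 mesenchyme. Of these, 13 were at least 2-fold higher and 6 lower at E14.5, against 4.51% and 2.91% of all genes. Their median log2 ratio was 0.66, beside -0.15 over all genes. Because the list was chosen with earlier results of these data known, its counts beside all genes are a description and not a test. The highest were Inhba, the activin subunit secreted by dental mesenchyme, at 3.76 and 352 CPM (4.72), Runx2, a regulator of bone and tooth mesenchyme, at 13.0 and 222 CPM (3.34), and Alx1, at 27.7 and 160 CPM (2.18). The lowest were Pitx1, at 206 and 21.7 CPM (-2.77), Gsc, at 97.2 and 9.01 CPM (-2.49), and Dlx1, at 42.6 and 6.38 CPM (-1.68), 3 homeobox genes of the arch. Of 20 jaw patterning factors, 6 were higher and 6 lower, whereas of the 8 downstream genes 5 were higher and 0 lower. Among 4 LIM cofactors only Lmo1 was higher, and Bmp4, the 1 signal with enough counts, was at 13.0 and 58.2 CPM (1.57). None of the 5 paralogs reached 10 CPM in the mesenchyme.

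From E14.5 to E16.5, 34 circuit genes were counted, with 5 higher and 3 lower, against 1.77% and 0.555% of all genes. Their median was 0.23, beside 0.08 over all genes. The highest were Dlx1, at 6.38 and 90.1 CPM (2.61), Bmp2, at 8.0 and 79.6 CPM (2.32), and Dlx3, at 13.5 and 62.7 CPM (1.63). The lower genes were Osr1, at 43.7 and 3.17 CPM (-2.03), Inhba, at 352 and 137 CPM (-1.30), and Pitx1, at 21.7 and 5.58 CPM (-1.02). Dlx1 thus stood lowest at E14.5, as Msx2 did. Against epithelium, 21 of 38 circuit genes were higher in mesenchyme and 8 lower at E14.5, and 19 of 34 were higher and 5 lower at E16.5. The shares over all genes were 5.61% and 4.83% at E14.5, and 5.9% and 4.76% at E16.5. Many genes were listed as mesenchymal genes or as signals, so the choice of the list partly set these directions. At E14.5, 7 of 8 downstream genes and 12 of 19 jaw patterning factors were higher in mesenchyme. Of 5 signals, 1 was higher and 3 were lower.

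The genes with the most similar pattern to each member were taken from 4632 genes over the 12 mesenchymal clusters of the 3 matrices at resolution 0.4, by Pearson's r of log2 CPM with 10 added. These points share libraries and depth within a stage, and no p was computed. For Barx1 the nearest were Foxp2 (r = 0.993), Mecom (0.976) and Asb4 (0.976), and for Lhx6 they were Asb4 (0.993), Nr2f1 (0.992) and Car14 (0.985). Both members were close to each other at r = 0.971, a pattern set by the E11.5 clusters against the later ones. Pax9 was nearest to Osr2 (0.978), Tfap2a (0.916) and Sdc2 (0.873). Msx2 was nearest to Id1 (0.887), Dlx3 (0.871) and Dlx1 (0.852). Id1 is a common target of BMP signals. Lhx8 was nearest to Gas1 (0.905), Arhgap28 (0.891) and Mab21l2 (0.889).

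Msx1 was nearest to Stx18 (r = 0.918), Prrx2 (0.898), which is also one of the markers that named the mesenchyme, and Fermt2 (0.868). Stx18, which encodes a syntaxin of the endoplasmic reticulum, is the next protein-coding gene to Msx1 on chromosome 5, 214 kb away on the opposite strand with 0 protein-coding genes between them. Among the members themselves, Msx1 and Pax9 had r = 0.706 over the 12 clusters, and Msx1 and Barx1 had r = -0.700. These values also carry the difference between stages and do not describe a relation within a stage. Barx1 was at 324 to 510 CPM in the E11.5 clusters and at most 35.0 CPM in those of E14.5.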

How the data were processed

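Single cells were captured with the 10x Chromium 3′ v3 kit, and UMI counts per gene and cell were deposited by the authors, 1 matrix per stage, made with Cell Ranger 4.0.0 on mm10. These counts were used as deposited. Cells with fewer than 700 genes or above 20% mitochondrial UMIs were left out, as in the study. Each stage was clustered alone with SCTransform (Seurat 5.3.0, sctransform 0.4.2, R 4.3.3) on 2000 variable genes without members and circuit genes, 20 principal components and Leiden clustering at resolution 0.4 (leidenbase 0.1.32). Cluster names came from marker lists by a scoring rule set after the data were seen, which asked for a score of at least 0.5, a lead of 0.1 and 3 markers. It also asked that the 10 leading genes hold no more markers of another class than of its own. Scrublet in scanpy 1.11.5 called 0, 0 and 2 cells and so did not work. No doublets were removed.

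Levels were counts pooled over the cells of a class, as CPM. Ratios were taken with 10 CPM added, and 2-fold was asked of genes with at least 10 CPM in either group. Cells were thinned to 2000 UMIs for shares and co-detection, and shallower cells were left out (591, 685 and 42 mesenchymal cells). Named genes were the members, the 3 largest circuit differences in each direction, the 3 genes most like each member, and the 3 genes at either end between Barx1 and Msx1 cells. Values of some listed genes are not reported here. The members and lists were chosen with earlier results of these data known. Scripts were tested on simulated data and run with Python 3.11.15, numpy 2.4.6, scipy 1.17.1 and pandas 2.3.3.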

Additional observations from a re-analysis of the deposited data

How the results depend on the processing

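No paired analysis was possible because the barcodes of a stage could not be assigned to samples, and leaving out each sample was not run for the same reason. Across alternatives 152 of the members' log2 ratios moved by less than counting error, 94 moved further and 0 changed direction, and for co-detection ratios these numbers were 259, 27 and 1. The 1 was Pax9 with Lhx8 at E14.5, at 1.21 with at least 2 UMIs of each gene, against 0.675. The cause was not tested. With 50 CPM added, members higher and lower at E14.5 than at E11.5 were 0 and 1 (1 and 2 with 10 CPM added), and circuit genes 5 and 2 (13 and 6). From E14.5 to E16.5, 50 CPM gave 2 circuit genes higher and 1 lower, 1 CPM gave 5 lower, and the mean of each cell's own CPM gave 8 higher (5 and 3 with 10 CPM). In that step 2 members were higher, Pax9 joining Msx2, at resolution 0.2, with the top 5% of Scrublet scores left out, after thinning before summing, and with the mean of each cell's own CPM. At E16.5, 1 member, Msx2, was 2-fold higher in epithelium under the same 4 settings and with no genes left out of the clustering. The shares over all genes given above hold for the main setting with 10 CPM added. None is given for the alternatives, so these counts of members and circuit genes have no background beside them. The number of pairs above 1 was 4 at E11.5 with 1000 UMIs and 12 with at least 2 UMIs of each gene (7 in the report). At E14.5 it was 1 with at least 200 genes, 1 with at least 1000 genes and 10% mitochondrial UMIs, and 2 with at least 2 UMIs (0 in the report). At E16.5 it was 1 with at least 200 genes, 0 with at least 1000 genes, 0 with 1000 UMIs, 1 over 10 bins of depth, 4 with at least 2 UMIs, and 0 summed over clusters (2 in the report). Adding the unnamed E11.5 cluster, an alternative chosen after seeing the data, gave log2 ratios from E11.5 to E14.5 of 1.70 for Pax9, -4.68 for Barx1 and -1.79 for Lhx6. At the later stages counts of Barx1 and Lhx6 limit every statement about them.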
